A study of Bos taurus with 30 samples.

Results

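The FGF ligands and receptors followed here are 10 genes, FGF2, FGF4, FGF5, FGF8, FGF10, FGF17, FGFR1, FGFR2, FGFR3 and FGFR4, out of 35092 genes in the count table. They were chosen by name, as the rows whose Entrez ID maps to 1 of these symbols, and all 10 were found. Each was described in the embryonic disc (ED), the part of the conceptus that forms the fetus, and in the extra-embryonic membranes (EEM), the trophectoderm and hypoblast that later build the placenta.

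The 30 poly(A)-selected RNA libraries came from 17 Holstein (Bos taurus) embryos flushed at day 15, 8 of them from in vitro production (IVP) and 9 grown in vivo (IVV). ED libraries came from 7 IVP and 9 IVV embryos, EEM libraries from 6 and 8, and 13 embryos (5 IVP and 8 IVV) gave both tissues. For IVP, oocytes from slaughterhouse ovaries were matured and fertilized, and the embryos were cultured without serum and transferred at day 7 to a pair of recipient cows. IVV embryos developed in a pair of superovulated cows after artificial insemination, and the semen of 1 bull was used for all embryos of both groups. Embryos with no visible ED were discarded before sampling, which by the study's rates removed a far larger share of IVP than of IVV embryos. Several embryos shared a cow. Recipient or donor cow, superovulation and in vitro culture therefore cannot be told apart, and the p-values measure the spread between embryos. The study also reported IVP embryos as shorter than IVV embryos, and XIST, an RNA described below, nearly separated the groups. Embryo length and XIST are thus largely tied to procedure as well.

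FGF are secreted proteins that bind heparan sulfate and tyrosine kinase receptors (FGFR), which signal through the RAS-MAPK chain to ETV transcription factors and to inhibitors such as the SPRY and DUSP families. In the mammalian embryo FGF4 is made by the epiblast, FGF8 and FGF17 belong to 1 subfamily of ligands that act at the primitive streak, and FGF10 acts mainly on the epithelial forms of its receptors. FGF2 is known in ruminants as a uterine ligand that acts on the trophectoderm.

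Library totals ran from 48713218 to 63037371 counts. Levels are given as counts scaled to library size, as CPM, normalised with TMM factors. They can be compared between libraries for 1 gene but not between genes, since exon lengths were not at hand. The ED libraries carried the epiblast markers NANOG (2.71 to 44.0 CPM, against at most 0.195 CPM in any EEM library) and POU5F1 (16.4 to 228 CPM, against at most 2.44 CPM). SOX2, another marker of the epiblast, was listed at 0 in every library, and so was the FGF feedback inhibitor SPRY4. Trophoblast markers were abundant in both tissues, with a median summed level over 10 genes of 15425 and 10613 CPM in IVP and IVV discs against 17861 and 14862 CPM in the EEM. The uterine marker PAEP was at 0 in all 4 groups. The summed level of the uterine list was 4.67 to 17.5 CPM in IVP and 13.1 to 34.4 CPM in IVV discs, with MSX1 the 1 of 3 tested genes that passed (lower in IVP). MSX1 was also higher in the ED than in the EEM of IVV embryos, by 3.06 on the log2 scale. Whether it marks uterine cells here was not tested. The maternal blood list summed to at most 42.3 CPM in any library. Their part in the results was not tested. XIST, the RNA of the inactive X chromosome, was at most 0.591 CPM in every IVP library. In IVV discs it was between 45.1 and 150 CPM in 7 of 9 and close to 0 in VE3 and VE5. The sex of the embryos is not in the labels.

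Between IVP and IVV embryos no member passed the test in either tissue. By the quasi-likelihood test of edgeR, Benjamini-Hochberg adjusted, 0 of the 7 members that could be tested in the ED were differentially expressed genes (DEG, adjusted p under 0.05), where 6.34% of all 15733 genes tested were. In the EEM it was 0 of 5 tested members, against 3.81% of 14718 genes. The unadjusted p was under 0.05 for FGF17 and FGF8 in the ED and for FGFR3 in the EEM. FGF4 in the ED and FGF8 in the EEM, where most IVV libraries lay above all IVP libraries, had too few counts for this test. Between tissues more members passed. In IVV embryos 7 of 10 members were DEG, all higher in the ED (FGF2 and FGF4 with at most 1 count in an IVV membrane), against 22.1% of 16784 genes (15.6% higher in the ED). In IVP embryos 4 of 10 were DEG, again all higher in the ED, against 4.83% (4.18% higher in the ED). FGF4 and FGF17 passed the count filter through the discs alone, and without them the counts are 5 of 8 in IVV and 3 of 8 in IVP embryos. These counts still hold FGF8, called in both, which was under the filter in the EEM and so entered mainly through the discs. In IVV embryos they also hold FGF2, with at most 18 counts in any library.

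**Figure D1:**
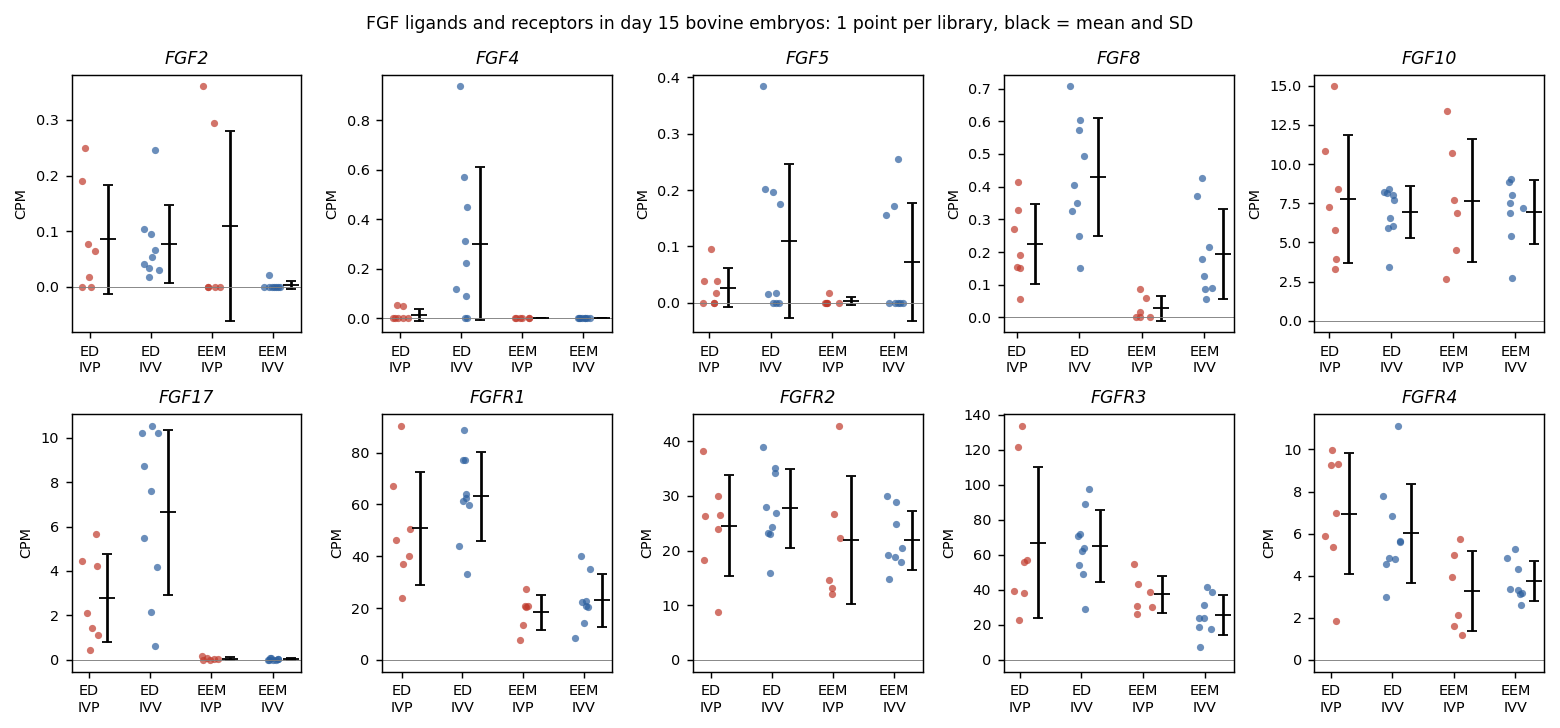
CPM of the 10 members in every library, by tissue and procedure (red IVP, blue IVV), 1 point per embryo, with the mean and SD in black beside each group; each panel has its own linear axis. FGF4 and FGF17 are seen almost only in the ED, FGF10 and FGFR2 lie at like levels in all 4 groups, and FGFR1 is higher in the ED than in the EEM.

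FGF17, a ligand of the FGF8 subfamily, was abundant in the ED and nearly undetected in the EEM. In IVV discs its level was lowest at 0.632 CPM, in VE4, had a median of 7.59 CPM and reached 10.6 CPM. In IVP discs it ran from 0.445 CPM, in IVP10, over a median of 2.10 CPM to 5.65 CPM. In the EEM it never rose above 8 counts in IVP and 4 counts in IVV libraries, and the highest EEM library was that of IVP10, the IVP embryo with the lowest disc. The ED held more FGF17 than the EEM in all 13 embryos with both tissues. The fitted difference was 7.83 on the log2 scale in IVV (SE 0.66, adjusted p = 3.75e-08) and 5.73 in IVP embryos (SE 0.78, adjusted p = 0.0001, and 7.49 without IVP10) by edgeR's quasi-likelihood test with embryo as a block. FGF17 entered this fit through the discs, where it is high. The 2 values were not shown to differ, with an interaction of -2.10 (adjusted p = 0.579), which became -0.33 without IVP10.

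Discs of IVP embryos had 2.77 ± 1.98 CPM of FGF17 (mean ± SD, n = 7), against 6.64 ± 3.71 CPM in IVV discs (n = 9). The groups overlapped, although 5 of 9 IVV discs lay above every IVP disc. The log2 fold change was -1.21 (SE 0.49, 95% confidence interval -2.22 to -0.21), and the adjusted p of edgeR's quasi-likelihood test was 0.159. It became 0.0431 when VE4 was left out and 0.365 without VE5, so that the call depends on single IVV discs. In bulk tissue, fewer cells that express a ligand and less of its RNA per cell cannot be told apart.

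FGF8, known from the streak and the tail bud, was found at few counts. In the ED it had between 3 and 26 counts (0.0556 to 0.415 CPM, median 0.192) in IVP and between 10 and 46 counts (0.152 to 0.707 CPM, median 0.404) in IVV embryos. The 4 highest discs were IVV and the lowest was IVP10, with overlap between them. The log2 fold change of IVP against IVV was -0.96 (SE 0.45, 95% confidence interval -1.88 to -0.04) with an adjusted p of 0.24 in edgeR's quasi-likelihood test.

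The EEM showed FGF8 as well. All 8 IVV libraries held it, with 3 to 20 counts (median 9), whereas 3 of 6 IVP libraries had none and the others at most 4 counts. Here 7 of 8 IVV membranes lay above every IVP membrane. FGF8 was under the count filter in this tissue, so the CPM were compared with a two-sided exact permutation test of the group means, which gave p = 0.00866 for 0.194 ± 0.137 CPM in the 8 IVV against 0.0273 ± 0.0372 CPM in the 6 IVP membranes (mean ± SD). This p is not adjusted, is 1 of 8 such tests on members under the filter (1 of them, FGF4 in the EEM, with 0 throughout), and ran from 0.0035 to 0.0264 when each embryo was left out. A fit without any count filter put the adjusted p at 0.047.

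The ED was above the EEM for FGF8 in 7 of 8 IVV and 5 of 5 IVP embryos. In edgeR's quasi-likelihood test the difference was 1.42 on the log2 scale in IVV (SE 0.50, adjusted p = 0.0449) and 2.91 in IVP embryos (SE 0.85, adjusted p = 0.0434). FGF8 was under the count filter in the EEM, so it entered these fits mainly through the discs, where it is higher. Both calls sat at the threshold. The IVV call was lost without VE26, VE28, VE29, VE3, VE4 or VE5 (highest adjusted p 0.115), without the embryo block (adjusted p = 0.123) and without a count filter (0.0579). The IVP call was lost without IVP10, IVP11, IVP14, IVPF14, VE24, VE26, VE3 or VE5, and the adjusted p was highest without IVP14, at 0.202, where the difference was 2.24. Without IVPF13 the difference was 3.90.

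FGF4, the ligand that the epiblast itself makes, was not detected in the EEM, with 0 counts in all 14 libraries, which allows up to 3 counts each (counting error only). In IVV discs the counts were 61 in VE5, 36 in VE29, 25 in VE28, 19 in VE3, 11 in VE19, 8 in VE26, 6 in VE6 and 0 in VE24 and VE4. In IVP discs they were 3 in IVP14, 3 in IVPF15 and 0 in the other 5. Thus 7 of 9 IVV discs lay above every IVP disc, and the remaining IVV discs were among the zeros. Taking 3 counts per library as the floor, the mean level in IVV discs (0.300 CPM) was at least 5.44-fold higher than in IVP discs, or at least 3.997-fold higher without VE5. If the mates of a pair were counted singly, 3 counts are fewer than 3 fragments and such bounds are too high. FGF4 did not pass the count filter in the ED. The two-sided exact permutation test of the CPM gave p = 0.0172, unadjusted, with 0.00637 to 0.0312 when single embryos were left out. In edgeR's quasi-likelihood test without a filter its adjusted p was 0.00598, and among embryos with both tissues, where it passed the filter through the IVV discs alone, 0.0284. Between the tissues of IVV embryos FGF4 was at least 5.54-fold higher in the ED (adjusted p = 0.00198 in edgeR's quasi-likelihood test, but 0.276 in DESeq2). It entered that fit only through the group in which it is high, and it fell under the count filter when VE19, VE28, VE29, VE3 or VE5 was left out.

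FGF4 lies between FGF19 and FGF3 on bovine chromosome 29, as neighbours in the RefSeq annotation of ARS-UCD2.0. Both neighbours, which are ligands outside the set of 10, were again detected in discs. FGF3 had 4 to 27 counts in the 9 IVV discs (0.0702 to 0.415 CPM, median 0.213) and 0 in all 7 IVP discs and all 14 EEM libraries. The IVP and IVV discs thus did not overlap, and the mean level in IVV was at least 4.15-fold above the IVP floor. FGF3 did not pass the filter for the ED and was singled out after its counts had been seen, so no test is given. The number of genes detected did not overlap between the discs either, with 17671 to 18577 in IVP and 19131 to 19957 in IVV libraries, and its part in the low-count ligands was not tested. FGF22, another ligand under the filter, lay the other way, with 0.136 to 0.433 CPM in IVP and 0.0477 to 0.137 CPM in IVV discs. FGF19, an endocrine ligand that acts with the coreceptor KLB, was a DEG. It had 0.936 to 9.27 CPM (median 3.67) in IVV and 0.370 to 1.81 CPM (median 1.15) in IVP discs, and 6 of 9 IVV discs lay above all IVP discs. Its log2 fold change of IVP against IVV was -1.81 (SE 0.44, adjusted p = 0.0134), and the call was lost when only embryos with both tissues were compared (adjusted p = 0.0854). KLB itself was at 63.2 ± 27.8 CPM in the 7 IVP discs and 42.4 ± 9.93 CPM in the 9 IVV discs (mean ± SD) and was not a DEG.

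FGF10, a ligand best known from epithelial branching and in this conceptus seen in both tissues, did not follow the disc pattern. Its range was 3.32 to 15.0 CPM (median 7.29) in IVP discs and 3.41 to 8.39 CPM (median 7.70) in IVV discs, and 2.69 to 13.4 CPM (median 7.29) and 2.76 to 9.04 CPM (median 7.34) in the matching EEM. All 4 ranges overlapped, and the IVP embryos spread more widely (SD 4.09 against 1.64 CPM in the ED), with 3 IVP discs and 2 IVP membranes above every IVV library of the tissue. The log2 fold change of IVP against IVV was 0.09 in the ED (95% confidence interval -0.47 to 0.65) and 0.04 in the EEM (-0.54 to 0.62). Between tissues it was -0.01 in IVV (-0.30 to 0.28) and 0.08 in IVP embryos (-0.28 to 0.45). The ED was higher in 4 of 8 IVV and 4 of 5 IVP embryos. VE19 was the lowest IVV embryo in both tissues (3.41 CPM in the ED and 2.76 CPM in the EEM).

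FGF2 was near the limit of detection. IVV discs held 1 to 16 counts, IVP discs 0 to 11, and IVV membranes at most 1. In the IVP membranes 18 counts in IVPF14 and 15 in IVP11 stood against 0 in the other 4. These libraries alone separated the groups of the EEM. The fit without a filter called FGF2 there (adjusted p = 0.0095, edgeR's quasi-likelihood test), whereas the two-sided exact permutation test of the CPM gave p = 0.165. In IVV embryos FGF2 was higher in the ED in 8 of 8 pairs (adjusted p = 0.011), but in 4 of them the disc had no more than 3 counts, and without VE5, with its 16 counts, FGF2 fell under the filter. In IVP embryos it was higher in 2 of 5. FGF2 overlaps NUDT6 in the annotation, and the libraries carry no strand, so reads on the shared stretch cannot be assigned to either gene.

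FGF5, a ligand of the late epiblast, was at or below 25 counts throughout. It was above 3 counts in 4 of 9 IVV discs, 3 of 8 IVV membranes, 1 of 7 IVP discs and no IVP membrane. Embryos VE19, VE28 and VE5 had it in both tissues, with 10, 11 and 25 counts in the ED and 8, 11 and 8 in the EEM. The tests of IVP against IVV did not pass (two-sided exact permutation p = 0.137 in the ED and 0.209 in the EEM), nor did that of the tissues (adjusted p = 0.411 in IVV, edgeR's quasi-likelihood test).

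**Figure D2:**
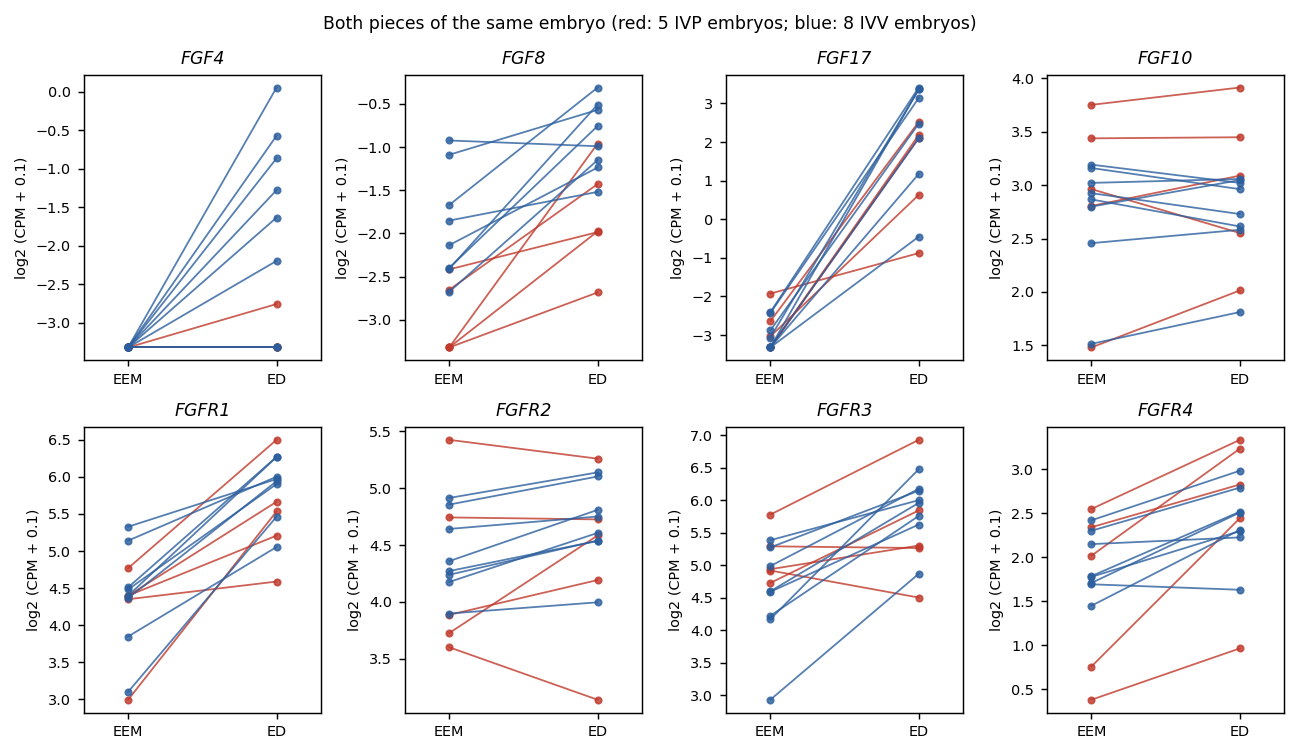
Level of 8 members in both pieces of the same embryo, as log2 (CPM + 0.1), with 1 line per embryo (red: 5 IVP, blue: 8 IVV). FGF17 and FGFR1 rise from EEM to ED in all 13 embryos, FGF10 lines are close to flat, and FGFR3 lines rise in 8 of 8 IVV but 3 of 5 IVP embryos.

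All 4 receptors were expressed in every library. FGFR1, the main receptor of the mammalian epiblast, was higher in the ED in both groups. It had 33.1 to 88.6 CPM (median 62.6) in IVV and 24.0 to 90.4 CPM (median 46.3) in IVP discs, against 8.48 to 40.1 CPM (median 21.6) and 7.88 to 27.2 CPM (median 20.6) in the EEM. The ED was higher in 13 of 13 embryos, from 1.18-fold in IVP10 to 5.87-fold in IVP11. The log2 difference was 1.47 in IVV (SE 0.22, adjusted p = 3.97e-05) and 1.28 in IVP embryos (SE 0.28, adjusted p = 0.00795, or 0.0566 without IVP14) in edgeR's quasi-likelihood test. IVP and IVV embryos overlapped in both tissues. The log2 fold change of IVP against IVV was -0.38 in the ED (95% confidence interval -0.89 to 0.13) and also -0.38 in the EEM (-0.92 to 0.16).

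FGFR2, whose epithelial splice form binds FGF10, was the most even receptor. Medians were 26.4 CPM in IVP and 26.8 CPM in IVV discs, with ranges of 8.72 to 38.2 and 15.9 to 39.0 CPM, and 18.5 and 19.8 CPM in the EEM, with ranges of 12.04 to 42.9 and 14.8 to 30.0 CPM. In IVV embryos the ED was higher in 8 of 8 pairs but by no more than 1.37-fold (log2 difference 0.27, 95% confidence interval -0.01 to 0.55, adjusted p = 0.154). In IVP embryos it was higher in 2 of 5 (0.07, -0.29 to 0.43). IVP against IVV gave -0.33 in the ED (-0.80 to 0.14) and -0.01 in the EEM (-0.56 to 0.54). Gene counts do not separate the splice forms of the receptors, and 1 long non-coding RNA overlaps FGFR2.

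FGFR3 had its tissue difference in IVV embryos alone past the threshold. IVV discs had 29.1 to 97.5 CPM (median 63.9) and IVV membranes 7.52 to 41.7 CPM (median 24.1), and the ED was higher in every one of the 8 IVV embryos, from 1.53-fold to 4.97-fold. IVP discs had 22.6 to 134 CPM (median 55.6) and IVP membranes 26.4 to 54.8 CPM (median 34.8), and the ED was higher in 3 of 5 IVP embryos, from 0.749-fold to 2.22-fold. The tissue difference was 1.36 on the log2 scale in IVV (SE 0.19, adjusted p = 2.73e-05) and 0.41 in IVP embryos (SE 0.24, adjusted p = 0.434). The test of the difference between the procedures did not pass, with -0.96 (SE 0.31, adjusted p = 0.181), as for every other member (0 of 10, against 1.02% of 16784 genes, edgeR's quasi-likelihood test). In the EEM, FGFR3 was at 37.4 ± 10.6 CPM in the 6 IVP and 25.5 ± 11.4 CPM in the 8 IVV embryos (mean ± SD), and 2 IVP membranes lay above all others. That fold change was 0.55 (SE 0.23, 95% confidence interval 0.07 to 1.02, adjusted p = 0.254). In the ED it was -0.20 (-0.71 to 0.32).

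FGFR4, a receptor with high affinity for FGF19 in the presence of KLB, was modestly higher in the ED. Its range was 1.85 to 9.99 CPM (median 7.00) in IVP and 2.998 to 11.1 CPM (median 5.59) in IVV discs, and 1.20 to 5.75 CPM (median 3.05) and 2.63 to 5.25 CPM (median 3.34) in the EEM. The ED was higher in 5 of 5 IVP and 7 of 8 IVV embryos. The log2 difference was 0.94 in IVP (SE 0.22, adjusted p = 0.0142) and 0.52 in IVV embryos (SE 0.17, adjusted p = 0.0369). These calls were not stable. The IVP call was lost without IVP14 or IVPF13 (adjusted p up to 0.0868) and without the embryo block (0.351), and the IVV call without IVPF14, VE19, VE24, VE26, VE28, VE29 or VE3 (up to 0.0927), without a filter (0.0653) and without the block (0.365). IVP against IVV gave 0.19 in the ED (95% confidence interval -0.45 to 0.84) and -0.13 in the EEM (-0.80 to 0.53).

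**Figure D3:**
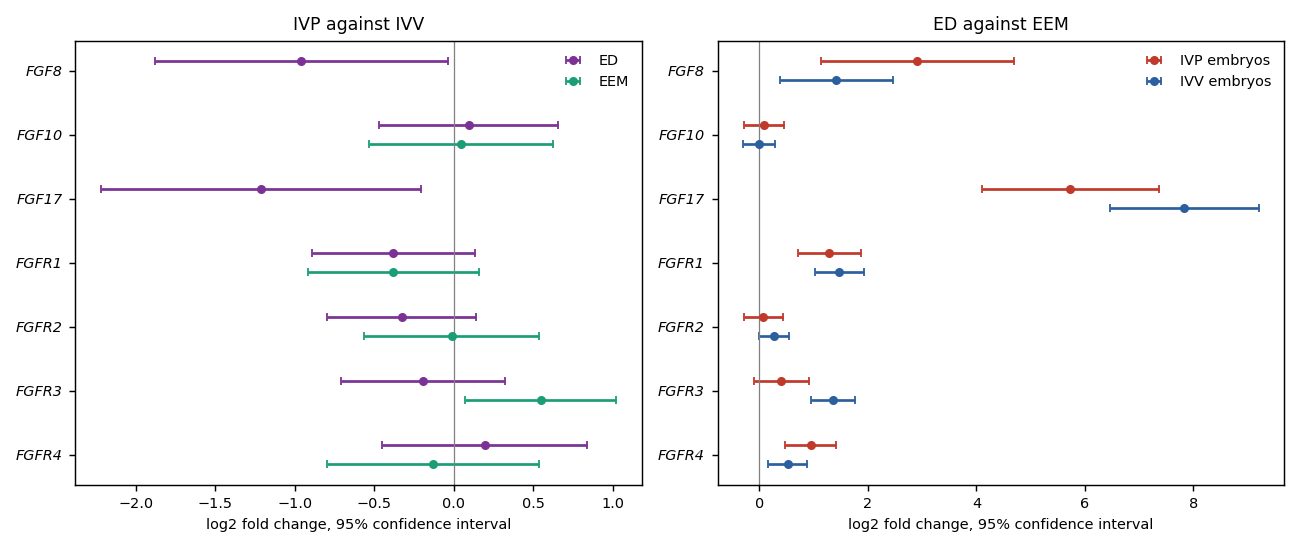
Log2 fold changes with 95% confidence intervals from edgeR's quasi-likelihood fits for the 7 members with counts enough in the ED: IVP against IVV on the left (ED and EEM) and ED against EEM on the right (IVP and IVV embryos). On the left FGF17 and FGF8 in the ED and FGFR3 in the EEM are the intervals that leave out 0, and none of them passed after adjustment; FGF8 and FGF17 have no EEM interval because they were under the count filter there.

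Markers of the streak, and 1 of the epiblast, also differed between the discs. POU5F1 was lower in IVP discs, at 16.4 to 39.6 CPM (median 29.3) against 26.9 to 228 CPM (median 68.8) in IVV discs (log2 fold change -1.72, SE 0.36, adjusted p = 0.0048, edgeR's quasi-likelihood test), and so were 6 of 8 streak genes, where 4.95% of all genes were lower. Among them were WNT3 (-3.06, adjusted p = 0.00026) and MIXL1 (-2.21, adjusted p = 0.00047). The summed level of the 8 streak markers was 7.28 to 18.6 CPM in IVP and 12.6 to 137 CPM in IVV discs. The epiblast list as a whole did not point one way. Of its 7 tested genes POU5F1 was lower and DPPA4 higher in IVP discs (log2 fold change 1.00, adjusted p = 0.0248, edgeR's quasi-likelihood test). The DPPA4 call was lost in 7 of 26 alternatives. NANOG was not a DEG, with medians of 6.86 CPM in IVP and 12.8 CPM in IVV discs. The summed level of the list was 305 to 768 CPM (median 538) in IVP and 349 to 1199 CPM (median 490) in IVV discs. In the EEM it was 203 to 407 CPM in IVP and 172 to 311 CPM in IVV, so the sum is not specific to discs. The part of these markers in the ligand differences was not tested in a model. Per 100 CPM of POU5F1, FGF17 was at 9.04 ± 5.75 CPM in IVP and 7.26 ± 3.45 CPM in IVV discs (mean ± SD, n = 7 and 9), FGF8 at 0.726 ± 0.253 and 0.559 ± 0.312 CPM, and FGF4 at 0.0384 ± 0.0656 and 0.238 ± 0.163 CPM. Nothing is read from these ratios, since POU5F1 was itself lower in IVP discs, was taken as the base after its values had been seen, and most IVP discs had 0 counts of FGF4.

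XIST also separated the groups, apart from VE3 and VE5. These IVV discs, with XIST near 0 as in all IVP discs, had 19 and 61 counts of FGF4, 13 and 27 of FGF3 and 5.47 and 10.2 CPM of FGF17. In VE3, however, FGF19 (0.936 CPM) and FGF11 (0.263 CPM) were the lowest of all IVV discs and within the range of IVP discs, whereas VE5 had the highest FGF19 of all (9.27 CPM). With XIST as a covariate the fold change of FGF17 was -1.67 (adjusted p = 0.171) and that of FGF8 -1.46 (adjusted p = 0.205) in edgeR's quasi-likelihood test.

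**Figure D4:**
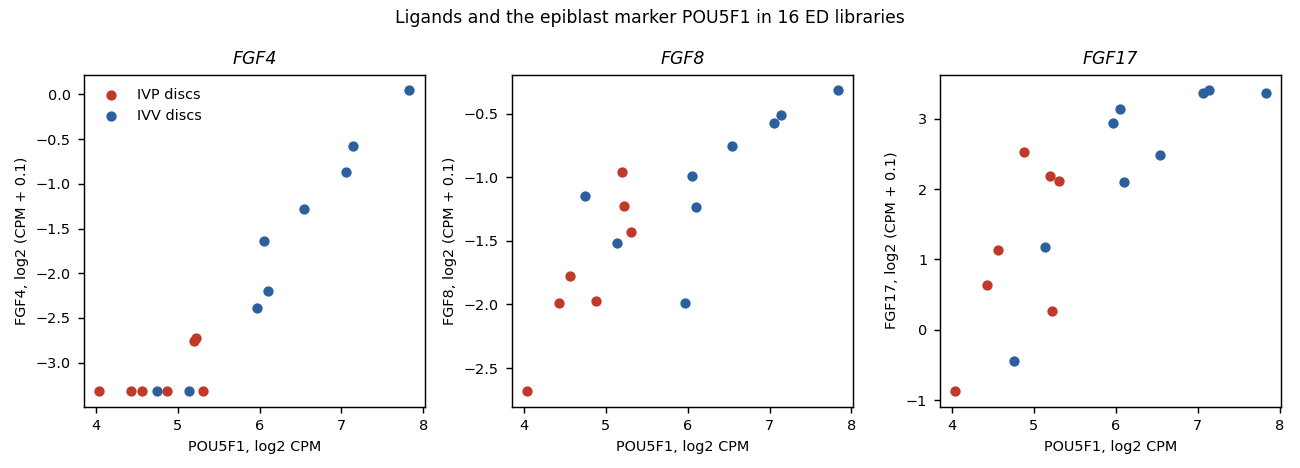
FGF4, FGF8 and FGF17 as log2 (CPM + 0.1) against POU5F1 as log2 CPM in the 16 ED libraries (red: 7 IVP, blue: 9 IVV). The IVP discs lie at the lower end of POU5F1 (16.4 to 39.6 CPM), together with VE24 and VE4, and the other 7 IVV discs have more POU5F1.

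Since day 15 discs may differ in stage, which the labels do not give, the ligands were set against TBXT, the brachyury gene that marks the primitive streak, within each group, with log2 CPM. Among the 9 IVV discs Pearson's r was 0.76 for FGF4 (rho 0.81) and 0.79 for FGF17 (rho 0.65), with two-sided exact permutation p of 0.0109 and 0.0205 for r and 0.0113 and 0.0666 for rho. Adjusted over the 6 relations computed, p was 0.0616 for both r, and 0.0681 and 0.133 for rho, so neither passed. Leaving out VE19 brought the adjusted p of r to 0.0146 for FGF4 and 0.0194 for FGF17, and leaving out VE24 that of FGF4 to 0.0167. The relations rest on the extremes of TBXT, since without VE4 and VE5 r fell to 0.46 for FGF4 and 0.22 for FGF17. For FGF8 r was 0.47 (rho 0.68, exact permutation p = 0.202 and 0.0503, adjusted 0.404 and 0.133), and 0.55 without VE4 and VE5. In the 7 IVP discs, where TBXT did not exceed 1.48 CPM, r was 0.37 for FGF17 (rho 0.56), -0.02 for FGF4 (rho 0.20) and -0.12 for FGF8 (rho -0.05), with adjusted exact permutation p of at least 0.59 for r and 0.308 for rho. Without IVP14 and IVPF14 these r were -0.25, -0.54 and -0.63, and without IVP10 that of FGF17 was 0.88.

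The genes most like each ligand in the 16 ED libraries, by Pearson's r of log2 CPM centred on the group means, were sought among the genes tested in the ED that have a symbol other than a LOC number (13855, or 13856 for FGF4). For FGF17 they were NODAL (0.978), CER1 (0.955), TRO (0.945), OTX2 (0.939) and CD3D (0.935). For FGF4 they were IGSF11 (0.92), POU5F1 (0.92), NEO1 (0.91), WNT3 (0.91) and CPAMD8 (0.91). For FGF8 they were LRIG1 (0.91), CNNM2 (0.88), EPDR1 (0.87), ADAMTS8 (0.85) and IL4I1 (0.85). FGFR2 had FNDC3A (0.96), DGKE (0.92), HERC2 (0.92), MORC3 (0.92) and POC1B (0.91). Ranked by Spearman's rho in place of r, 2 of these 5 genes stayed among the top 5 for FGF4, 3 for FGF8 and 0 for FGF17 and FGFR2. The likeness is over libraries that share their differences in disc content, with no test.

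The other genes of the pathway were followed in 6 lists. Among the 12 other FGF ligands, 3 could be tested in the ED and FGF19 alone was a DEG between IVP and IVV (6.34% of all genes), with 0 of 2 in the EEM (3.81% of all genes). In IVV embryos FGF19 (at most 2 counts in an EEM library, adjusted p = 1.54e-07) and FGF3 (0 in the EEM, adjusted p = 0.00252, but 0.261 in DESeq2) were higher in the ED, and in IVP embryos FGF19 was (0 in the EEM, adjusted p = 4.94e-05). Both entered these fits through the discs alone. The intracellular FGF homologous factors, which stay inside the cell and bind sodium channels, had 2 of 4 genes lower in IVP discs, where 4.95% of all genes were lower. FGF11 was at 0 to 0.317 CPM (median 0.104) in IVP and 0.263 to 0.718 CPM (median 0.445) in IVV discs, a log2 fold change of -1.94 (SE 0.46, adjusted p = 0.0109). It passed the count filter through the IVV discs, where it is high (16 to 40 counts, against 0 to 14 in IVP discs). FGF12 was at 0.259 to 1.54 CPM (median 0.363) against 0.298 to 2.78 CPM (median 1.36), a log2 fold change of -1.49 (SE 0.39, adjusted p = 0.023). The FGF12 call was lost without VE5 (adjusted p = 0.082), without IVPF13 (0.0545), without the surrogate variable (0.0602) and with embryos that had both tissues only (0.0974), and the FGF11 call with XIST as a covariate, at a log2 fold change of -2.002 (adjusted p = 0.055). In IVV embryos both were higher in the ED than in the EEM, FGF12 by 2.44 and FGF11 by 2.28 on the log2 scale. FGF11, with at most 8 counts in an IVV membrane, entered that fit through the discs.

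Coreceptors and extracellular binders had 0 of 7 tested genes changed in the ED between IVP and IVV (6.34% of all genes), and in the EEM 1 of 4 was higher in IVP (2.29% of all genes), FGFBP1, a secreted carrier that releases FGF from the matrix. FGFBP1 was at 0.571 to 4.09 CPM (median 1.55) in IVP and 0.0179 to 2.16 CPM (median 0.283) in IVV membranes, with overlap (log2 fold change 3.11, SE 0.54, adjusted p = 0.00084, 3.82 without VE26, and adjusted p = 0.11 without the surrogate variable). In IVV embryos 5 of 8 were higher in the ED (15.6% of all genes), including ANOS1 (at most 1 count in an IVV membrane), NCAM1 (4.11 on the log2 scale), the decoy receptor FGFRL1 (1.09) and the cadherin CDH2 (0.96). In IVP embryos CDH2 (0.69) and FLRT2 (3.61) were, and both calls were lost without IVP14, that of CDH2 also without IVPF13 and without the embryo block (adjusted p = 0.466), and that of FLRT2 without IVP11 or IVPF14. ANOS1 and NCAM1 were also the list's 2 genes whose tissue difference differed between the procedures (interaction, adjusted p = 0.00081 and 0.0112). In IVP embryos the means lay the other way, at 0.462 CPM in discs and 1.56 CPM in membranes for ANOS1 and at 0.273 and 0.429 CPM for NCAM1. ANOS1 was at 0 to 0.0214 CPM in IVV membranes and at 0 to 3.27 CPM in IVP membranes.

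In the heparan sulfate list of 21 genes, SDC1, the syndecan of epithelia, was higher in IVP embryos in both tissues. In the ED it was at 23.1 to 142 CPM (median 61.7) in IVP and 13.97 to 41.6 CPM (median 24.0) in IVV, and 6 of 7 IVP discs lay above every IVV disc (log2 fold change 1.58, SE 0.29, adjusted p = 0.00146). In the EEM it was at 28.8 to 116 CPM (median 71.5) against 8.34 to 49.8 CPM (median 22.1), with 4 of 6 IVP membranes above every IVV membrane (1.72, SE 0.27, adjusted p = 0.00032). Both calls held without each embryo and were lost with XIST as a covariate (1.23, adjusted p = 0.157, and 1.59, adjusted p = 0.14). SDC2 was lower in IVP discs (-0.84, adjusted p = 0.0465) and the sulfatase SULF1 higher in IVP membranes (1.11, adjusted p = 0.0466), but these were lost in 18 of 26 and 15 of 24 alternatives, single embryos left out among them. Between tissues, the glypicans GPC4 (6.70), GPC2 (4.95, or 6.03 without VE26) and GPC3 (3.22) and SULF1 (2.28) led the 8 of 21 genes higher in IVV discs (15.6% of all genes), with 1 of 21 lower (6.55%). In IVP embryos 3 of 21 were higher (4.18% of all genes), GPC4 (4.39), GPC3 (2.89) and GPC2 (at most 2 counts in an IVP membrane), and SULF2 was lower (-0.92). GPC2 thus passed the count filter through other groups than the IVP membranes. The GPC3 call was lost without IVP14 or IVPF13, that of GPC2 without IVP10, IVP11, IVP14 or IVPF14, and that of SULF2 without IVPF13. The calls of GPC2 (adjusted p = 0.053) and SULF2 (0.274) were also lost without the embryo block.

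Among the receptor adaptors and the RAS-MAPK chain, 0 of 21 tested genes were called between IVP and IVV in either tissue (edgeR's quasi-likelihood test). Of all genes 6.34% were called in the ED and 3.81% in the EEM, so 0 of 21 is near these shares. The median log2 fold change of the chain was 0.09 in the ED and 0.00 in the EEM, where the median over all genes was -0.01 and 0.00. Between tissues, PLCG1, the phospholipase recruited by the receptors, was higher (1.17, adjusted p = 0.00019) and SOS1 lower (-0.38, adjusted p = 0.0247) in IVV discs, the latter call being lost in 8 of 18 alternatives.

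Targets and feedback inhibitors had 11 of 22 tested genes higher and 2 lower in the ED of IVV embryos, where 15.6% of all genes were higher, with a median log2 difference of 0.58 against -0.10 for all genes. The ETV factors and SPRY2 led them. ETV1 was at 0.439 to 6.10 CPM in IVV discs with at most 1 count in an IVV membrane (adjusted p = 2.55e-09, having passed the count filter through the discs alone), ETV5 at 15.4 to 54.2 against 1.20 to 11.6 CPM (2.24, adjusted p = 2.22e-06), SPRY2 at 18.0 to 51.1 against 7.14 to 16.6 CPM (1.24, adjusted p = 4.5e-06) and ETV4 at 7.16 to 27.9 against 3.37 to 9.17 CPM (1.44, adjusted p = 9.85e-05). In IVP embryos 2 of 22 were called, both higher in the ED, where 4.18% of all genes were. They were ETV1 (at most 2 counts in a membrane, adjusted p = 5.43e-06, again having passed the filter through the discs alone) and ETV5 (1.54, adjusted p = 0.00497). Between IVP and IVV discs 2 of 21 were called, against 6.34% of all genes. DUSP9, an X-linked MAPK phosphatase, was lower in IVP, with 0 to 0.255 CPM (median 0.0802) against 0.232 to 1.86 CPM (median 0.427) and a log2 fold change of -3.05 (SE 0.69, adjusted p = 0.00804, -3.67 without IVP14, but -2.31 with an adjusted p of 0.128 with XIST as a covariate, and an adjusted p of 0.0572 among embryos with both tissues). It passed the count filter through the IVV discs, where it is high (14 to 122 counts, against 0 to 16 in IVP discs). SHISA2, which retains FGFR in the endoplasmic reticulum, was higher (1.17, adjusted p = 0.0429) but lost in 12 of 26 alternatives, leaving out any 1 of 9 embryos among them. In the EEM the early response gene IER2 was lower in IVP (-1.13, adjusted p = 0.00954, and 0.0521 without the surrogate variable) and the inhibitor IL17RD higher (1.01, adjusted p = 0.0166), with the IL17RD call lost without VE26 or VE3 and with XIST as a covariate (1.31, adjusted p = 0.129).

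**Figure D5:**
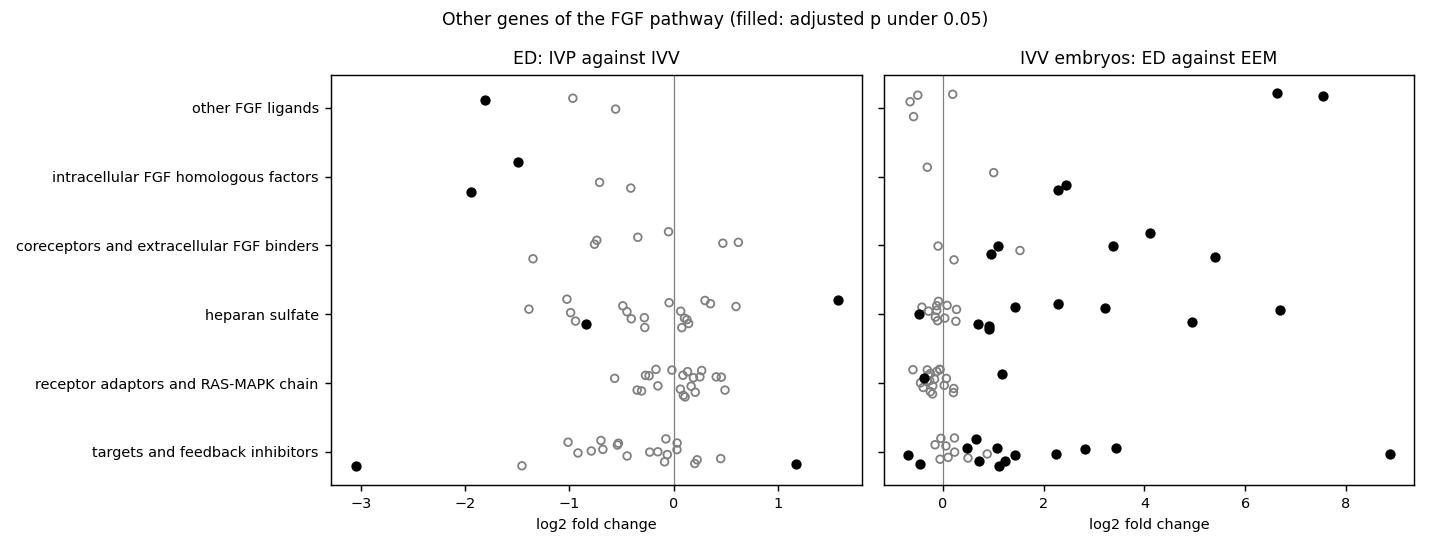
Log2 fold changes of the tested genes of the 6 pathway lists, IVP against IVV in the ED on the left and ED against EEM in IVV embryos on the right, with 1 point per gene (filled where the adjusted p of edgeR's quasi-likelihood test was under 0.05). On the left 7 points are filled, where 6.34% of all genes tested were called. On the right most filled points lie above 0.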

How the data were processed

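RNA was sequenced from ED and EEM pieces of day 15 embryos as non-stranded, poly(A)-selected paired-end libraries. The authors deposited raw read counts per gene (Entrez IDs), made per the labels with STAR 2.7.0b and featureCounts of Subread 2.0.3 on ARS-UCD1.3 after adapter removal. All 30 columns matched a sample, and 31630 of 35092 IDs matched a symbol in the RefSeq table of ARS-UCD2.0, which was used for names, gene order and overlaps between genes and is a later build. Entries of 2 outnumber entries of 1 in the table (19289 against 15257), so the mates of a pair may have been counted singly.

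The 10 members and all gene lists were chosen with earlier results of these data known. Counts were fitted with edgeR 4.0.16 in R 4.3.3 (TMM, filterByExpr with a minimum count of 10, quasi-likelihood test, Benjamini-Hochberg over all genes tested, threshold 0.05). IVP and IVV were compared within each tissue with 1 surrogate variable (sva 3.50.0), and tissues within the 13 embryos with both, with embryo as a block. The pairing comes from the titles, which give both pieces of an embryo the same number. Deviations of the 2 pieces from their group means correlated at -0.19 to 0.639 (median 0.403), highest with the own partner in 12 of 13 embryos. Levels are TMM-scaled CPM computed here. Correlations used log2 CPM with a prior count of 2. Members under the filter were compared by exact permutation of CPM in scipy 1.17.1, which can give no p under 8.74e-05 in the ED and 0.000333 in the EEM. A floor of 3 counts per library stands for a count of 0. Named pathway genes are at most 4 per list and comparison, those past the threshold with the smallest p, and named like genes are the 5 with the highest correlation. FGF3, FGF22, KLB and the ratios to POU5F1 were chosen after their values were seen. Alternatives were DESeq2 1.42.0, its size factors, other filters, 0 or 2 surrogate variables, the letter that ends each title or XIST as a term, embryos with both tissues only, no block, and each embryo left out. Counts divided by 2 were added after the data were seen. The fits were tested on simulated data.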

Additional observations from a re-analysis of the deposited data

Results flagged for a closer look

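Among 38 member and group combinations of 4 to 10 libraries, 6 held a library whose gap to its nearest neighbour was large for the group's range by Dixon's criterion, which chance gives in about 1 in 20 groups. For FGF2, the IVV disc of VE5 was highest at 0.246 CPM (16 counts). The FGF2 level of 0.0214 CPM in the IVV membranes of VE19 and the FGF5 level of 0.0175 CPM in the IVP membranes of IVPF9 are 1 count each, against 0 in the rest of the group. For FGF10, VE19 was lowest in IVV discs (3.41 CPM, 169 counts) and in IVV membranes (2.76 CPM, 129 counts), the one embryo far from its group in both tissues. For FGFR4, the IVP disc of IVP10 was lowest at 1.85 CPM (100 counts). IVP10 was also the lowest IVP disc for FGF8, FGF17, FGFR1 and POU5F1. What sets these libraries apart was not tested.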

How the results depend on the processing

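The pairing of the tissues moved the tissue comparison. Without the replicate block, 2268 genes were called in IVV embryos (2149 higher and 119 lower in the ED) in place of 3711 (2611 and 1100), 598 in place of 810 in IVP embryos and 229 in place of 172 for the interaction, with 5, 3 and 0 members. FGF8 in IVV and FGFR4 in both procedures were the member calls lost, and FGF2 in IVP turned to -0.24.

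In the ED, DESeq2 called 1512 genes, no filter 1846, at least 10 counts in every library 431 and XIST as a covariate 663, against 998. FGF4 was the 1 member called without a filter and the 1 called among embryos with both tissues. In the EEM, no filter called 1211 genes, among them 2 members (FGF2 and FGF8), 10 counts in every library 275 and XIST 145, against 561. Without the surrogate variable the EEM calls were 184 higher and 192 lower, against 337 and 224. Asking for 10 counts in every library left 1420 genes and 3 members in IVV, 194 genes and 2 members in IVP and 11 genes for the interaction, for which DESeq2 called 435 and no filter 356. That filter takes out the ligands with low counts.

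Leaving out each embryo gave 639 to 1160 calls and 0 to 1 member in the ED (639 without VE29, 1 member without VE4), 426 to 729 and 0 in the EEM, 2626 to 4125 and 4 to 7 in IVV, 473 to 851 and 1 to 4 in IVP (473 and 1 without IVP14), and 101 to 211 and 0 for the interaction (101 without VE29, 104 without VE28, 109 without IVP10 or IVPF14). Pearson's r with TBXT ranged from 0.19 to 0.88 for FGF17, -0.53 to 0.49 for FGF4 and -0.57 to 0.18 for FGF8 in IVP discs, and from 0.36 to 0.89, 0.64 to 0.91 and 0.30 to 0.65 in IVV discs.

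Values near 0 changed sign. FGFR3 in the ED was 0.0073 without and 0.016 with 2 surrogate variables. FGFR2 in the EEM was 0.0010 without and 0.097 with 2 surrogate variables, 0.0091 with 10 counts in every library, 0.081 with the title letter, 0.31 with XIST and 0.00068 in embryos with both tissues. FGFR1 in the EEM was 0.15 with XIST, and FGF10 in the EEM -0.060 with 2 surrogate variables. FGF10 between IVV tissues was 0.022 with DESeq2 size factors, 0.018 with DESeq2 and 0.066 with 10 counts in every library. With each embryo left out, FGF10 ranged from -0.063 to 0.28 in the ED, -0.12 to 0.20 in the EEM and -0.060 to 0.028 between IVV tissues, FGFR2 from -0.30 to 0.13 and FGFR4 from -0.42 to 0.033 in the EEM, FGF2 from -0.34 to 1.79 and FGFR2 from -0.12 to 0.24 between IVP tissues, and the interaction of FGFR1 from -0.45 to 0.089. The causes were not tested.

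Of the members' other values 721 kept their direction and side of the threshold, and 30 lost and 1 gained a call. Counts divided by 2, tried after the data were seen, changed no call of a member between IVP and IVV. With 3 counts as the floor, FGF2, FGF4, FGF5 and FGF8 lie close to what this depth can show, and counting error alone covers several of their single values.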
